A study of Mus musculus with 6 samples.

Results

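Downstream of the Etv6 gene on mouse chromosome 6 lie 10 genes, with other genes among them, that are described here. The libraries came from Etv6 R355X/+ and wild-type mice. The 10 genes are 4933406J09Rik, Bcl2l14, Lrp6, Mansc1, Borcs5, Dusp16, Crebl2, Cdkn1b, Apold1 and Ddx47. They were picked by symbol as neighbours of Etv6 within about 1 Mb on its downstream side, and 4933406J09Rik was included because it had been seen to be higher in the mutant. They are 10 of 55573 genes in the count table, and all 10 were among the 20646 genes that passed the filter on low counts. The study compared LSK cells, the marrow fraction that lacks lineage markers, carries Sca-1 and c-Kit and is enriched for blood stem cells and multipotent progenitors, between 3 Etv6 R355X/+ libraries and 3 wild-type (WT) libraries. The mice were C57BL/6J and 3 months old in both groups. The allele is called R355X in the series text and Etv6+/- in the mutant samples' genotype label. The sources used here do not say how the allele was made, whether the line descends from 1 founder or whether marrow was pooled. The question named in the series title is the repression of inflammatory genes by ETV6 in blood stem and progenitor cells under stress.

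Etv6 codes for an ETS-family repressor of transcription and is needed to keep blood stem cells in adult marrow. ETS factors bind DNA at a GGAA core. Its neighbours are best known one by one. Cdkn1b encodes a Cip/Kip inhibitor of cyclin-dependent kinases that holds cells, blood progenitors among them, out of division, and in human leukaemias deletions that remove ETV6 often take CDKN1B with it. Lrp6 encodes a Wnt co-receptor and Dusp16 a phosphatase that switches off stress-activated MAP kinases. Bcl2l14 belongs to the BCL2 family, and 4933406J09Rik is a long noncoding RNA (lncRNA) of no role known here.

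The positions bear out the label. In the GENCODE annotation of build mm10, Etv6 runs from 134035700 to 134270158 on the forward strand, and the 10 genes span 0.715 Mb beyond its end. The nearest is 4933406J09Rik (chr6:134308951-134403415), an antisense lncRNA on the reverse strand that ends 38.8 kb past the end of Etv6, so that both genes are transcribed towards each other. It starts inside Bcl2l14 (chr6:134396318-134438736, forward strand), 7.10 kb after the first start site of that gene, and is transcribed back across it. Of its 1505 exonic bases, 577 (38.3%) are also exonic in Bcl2l14 on the opposite strand. Another lncRNA inside Bcl2l14, Gm44448, drew 4, 0 and 2 counts in the mutant and 0 in every WT library, too few to be tested. The rest follow in the order Lrp6, Mansc1, Borcs5, Dusp16, Crebl2, Cdkn1b (chr6:134920401-134925513), Apold1 and Ddx47 (chr6:135011612-135023776). Other annotated genes lie between some of them, such as Gpr19 between Crebl2 and Cdkn1b. Gpr19 measured 5.80 ± 0.494 CPM in the mutant and 6.20 ± 0.983 CPM in WT (SD, n = 3). Ddx47, the last of the 10, begins 741 kb past the end of Etv6. The next genes outwards were Gprc5a, 795 kb away and too low to be tested at 0.126, 0.115 and 0.0223 CPM in the mutant and 0.0979, 0.143 and 0.0205 CPM in WT, and Gprc5d, at 0 counts in every library.

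**Figure D1:**
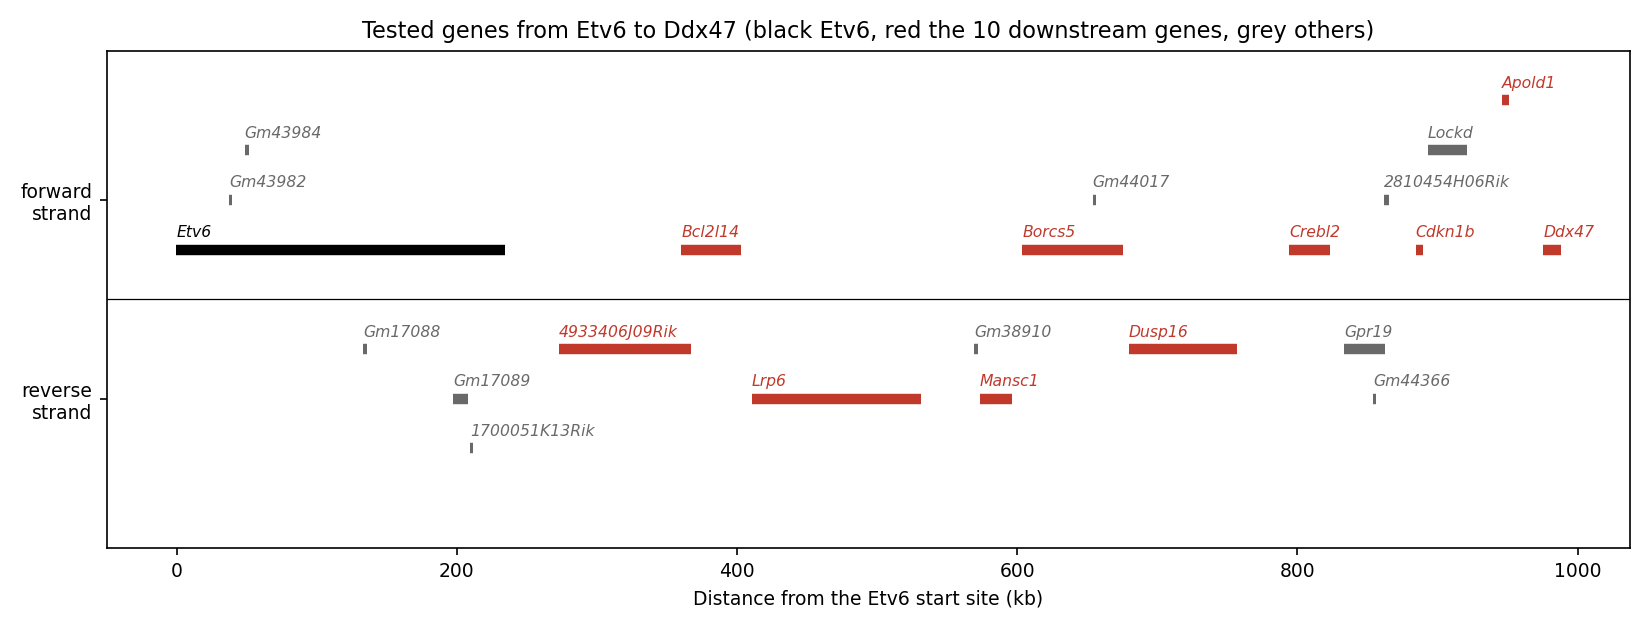
Tested genes from Etv6 to Ddx47 by distance from the Etv6 start site (x axis, kb), with forward-strand genes above the line and reverse-strand genes below it; each bar is 1 gene from its first to its last annotated base. 4933406J09Rik, on the reverse strand, lies between Etv6 and Bcl2l14 and overlaps the first part of Bcl2l14.

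RefSeq promoters (build GRCm38.p6, 250 bases before to 50 after a start site) were matched for 7 of the 10 genes, 9 promoters in all. Those of 4933406J09Rik and Bcl2l14 are shown because their levels differed most between genotypes. That of Cdkn1b is shown because, of the 10 genes, it is the best known in blood cells. That of Ddx47 is shown because its levels differed least. Capitals mark the ETS core GGAA or, for a core on the other strand, TTCC.
4933406J09Rik: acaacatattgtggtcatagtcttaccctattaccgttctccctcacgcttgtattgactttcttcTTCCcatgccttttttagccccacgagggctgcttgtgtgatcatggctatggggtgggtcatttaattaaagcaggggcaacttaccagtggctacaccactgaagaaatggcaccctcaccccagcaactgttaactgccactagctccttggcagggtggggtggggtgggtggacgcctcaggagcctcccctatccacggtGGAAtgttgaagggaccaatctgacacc
Bcl2l14: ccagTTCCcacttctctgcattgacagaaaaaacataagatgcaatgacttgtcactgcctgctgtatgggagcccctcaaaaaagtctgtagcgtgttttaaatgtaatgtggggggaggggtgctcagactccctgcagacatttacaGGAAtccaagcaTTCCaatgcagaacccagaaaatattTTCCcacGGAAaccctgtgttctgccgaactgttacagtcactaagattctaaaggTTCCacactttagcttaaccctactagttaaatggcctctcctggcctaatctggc
Cdkn1b: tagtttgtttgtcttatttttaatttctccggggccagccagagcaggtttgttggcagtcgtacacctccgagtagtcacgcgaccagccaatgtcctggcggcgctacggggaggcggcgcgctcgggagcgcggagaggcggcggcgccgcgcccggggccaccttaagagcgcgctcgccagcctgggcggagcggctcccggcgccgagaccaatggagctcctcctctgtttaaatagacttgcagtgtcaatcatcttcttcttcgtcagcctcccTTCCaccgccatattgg
Ddx47: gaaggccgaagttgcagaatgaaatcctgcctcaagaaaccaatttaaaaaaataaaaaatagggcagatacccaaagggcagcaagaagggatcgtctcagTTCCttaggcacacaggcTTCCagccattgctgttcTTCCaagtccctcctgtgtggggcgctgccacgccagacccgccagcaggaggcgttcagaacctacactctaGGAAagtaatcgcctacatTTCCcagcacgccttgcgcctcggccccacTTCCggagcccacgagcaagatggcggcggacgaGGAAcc
The windows are chr6:134403366-134403665 on the reverse strand for 4933406J09Rik, and chr6:134396079-134396378, chr6:134920151-134920450 and chr6:135011362-135011661 on the forward strand for Bcl2l14, Cdkn1b and Ddx47. The core occurred 2 times for 4933406J09Rik, 6 times for the first Bcl2l14 promoter, 1 time for Cdkn1b and 7 times for Ddx47, counting both strands. All 9 promoters held at least 1, as did 96.0% of the 32851 promoters of the same length (median 3). The longer form CCGGAAG, which contains the core, was found on either strand only for Ddx47 and in 8.86% of all promoters. A match is a description of these letters and not a binding site.

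The libraries held 92.2, 51.1 and 45.2 M expected counts in mutant replicates 1, 2 and 3 and 60.8, 47.9 and 48.4 M in WT replicates 1, 2 and 3. Mutant replicate 1 stood apart by depth and by nuclear ribosomal RNA, at 8.61% of its counts against 6.30% to 7.19% in the other 5 libraries. The sorting markers were present, with Kit at 378 ± 23.5 CPM in the mutant and 419 ± 33.0 CPM in WT and Ly6a, which encodes Sca-1, at 78.2 ± 2.80 and 85.8 ± 12.2 CPM (SD, n = 3). Genes listed here as markers of other cells were also detected, none of them at 0 in every library. Whether LSK cells themselves express these genes was not tested. The summed level was higher in every mutant library than in every WT library for 3 lists. These were the erythroid list, the endothelial list, and the list for mast cells, basophils and eosinophils. B-lineage markers were above 0 on the log2 fold change scale in 9 of 9 (summed level 1911 to 2261 CPM in the mutant and 1316 to 2110 CPM in WT), macrophage and dendritic markers in 7 of 9 (97.4 to 143 and 88.4 to 103 CPM) and mast, basophil and eosinophil markers in 7 of 7 (123 to 135 and 105 to 109 CPM). Erythroid markers were above 0 in 6 of 8 (116 to 225 CPM in the mutant and 55.3 to 92.4 CPM in WT) and endothelial markers in 4 of 8 (154 to 163 and 134 to 147 CPM). T and NK markers were above 0 in 6 of 9 (114 to 150 CPM in the mutant and 104 to 130 CPM in WT), neutrophil markers in 2 of 7 (4201 to 5899 and 5435 to 8111 CPM) and LSK markers in 0 of 7 (1567 to 1771 and 1516 to 1974 CPM). The part of such cells in the levels below was not tested. In bulk libraries, fewer cells of a type and less RNA per cell cannot be told apart.

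Etv6 itself measured 305, 341 and 386 CPM (counts scaled to 1e+06 per TMM-normalised library) in the mutant and 454, 419 and 400 CPM in WT. Each mutant library was below every WT library, as for 7.84% of all tested genes. The fitted level was 81.0% of WT (log2 fold change -0.30, SE 0.086, adjusted p = 0.245 by edgeR's quasi-likelihood test, Benjamini-Hochberg). Gene counts do not read the R355X base, so they check the label only as far as this level. Without mutant replicate 1 the log2 fold change of Etv6 was -0.22.

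4933406J09Rik, the lncRNA next to Etv6, differed between genotypes far more than any other of the 10 genes. It drew 128.7, 128.77 and 112.8 expected counts in mutant replicates 1, 2 and 3, and 18.87, 11 and 10 in WT replicates 1, 2 and 3. Scaled to library size these were 1.48, 2.47 and 2.52 CPM in the mutant and 0.310, 0.225 and 0.205 CPM in WT. The lowest mutant library stood well above the highest WT library, and within the mutant the deepest library, replicate 1, was the lowest. The means were 2.16 ± 0.590 CPM in the mutant and 0.247 ± 0.0556 CPM in WT (SD, n = 3), a fitted log2 fold change of 3.10 (SE 0.34) or 8.55-fold. The gene was chosen for this difference, so it is given as a description. The WT counts are small: their exact Poisson 95% intervals run from 11.4 to 29.7, from 5.49 to 19.7 and from 4.80 to 18.4 counts, which covers counting error only.

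By adjusted p under 0.05, 1 of the 10 genes passed, 4933406J09Rik, against 0.266% of all 20646 tested genes, and nothing is read from that share because the same contrast chose the gene. Among the 39 genes that passed as higher in the mutant it had the 6th largest log2 fold change. In the fits with 1 library left out its log2 fold change ran from 2.97 to 3.31, the highest without mutant replicate 1. Of the other 7 genes of chromosome 6 that passed, the nearest to Etv6 was the NK receptor gene Klrb1f, 4.98 Mb away on the upstream side.

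Bcl2l14, the BCL2 family gene that the lncRNA starts in, measured 3.02, 2.67 and 2.58 CPM in the mutant and 2.20, 1.62 and 1.15 CPM in WT. The genotypes did not overlap, and neither did they for 4933406J09Rik; of all tested genes, 16.3% did not overlap in either direction and 8.45% did so as higher in the mutant. The means were 2.76 ± 0.231 and 1.66 ± 0.527 CPM in the mutant and WT (SD, n = 3), with a log2 fold change of 0.73 (SE 0.25), or 1.66-fold. Leaving out 1 library at a time moved it between 0.53, without WT replicate 3, and 1.00, without WT replicate 1.

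The counts of these 2 genes are not independent. RSEM shares out reads that fit both, and 4933406J09Rik had a fractional count in 4 libraries, in each of which its sum with Bcl2l14 was whole within 0.011. In the remaining 8 genes every count was whole. The 2 genes together drew 393, 268 and 229 counts in mutant replicates 1, 2 and 3, and 154, 90 and 66 in WT replicates 1, 2 and 3. On the CPM scale the sum was 4.49, 5.14 and 5.10 in the mutant and 2.51, 1.84 and 1.35 in WT. All 3 mutant sums were above all 3 WT sums, with means of 4.91 ± 0.362 and 1.90 ± 0.581 CPM (SD, n = 3). Counted as 1 gene, the pair had a log2 fold change of 1.36 (SE 0.23), a setting chosen after seeing the data. The lncRNA took 32.7% to 49.3% of the pair's counts in the mutant and 12.2% to 15.2% in WT. How RSEM's split of the shared exons moves between the 2 genes was not tested, and the counts carry no strand.

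**Figure D2:**
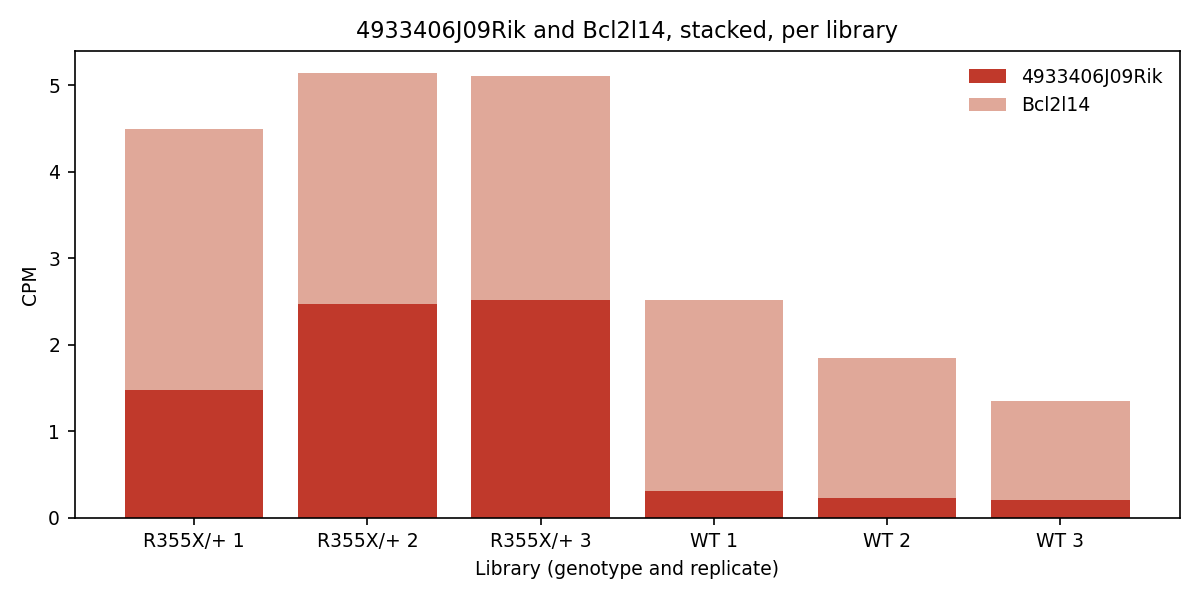
Level of 4933406J09Rik (dark) stacked under that of Bcl2l14 (light) in each library (x axis, genotype and replicate; y axis, CPM from 0). The stacks reach 4.49 to 5.14 CPM in the mutant and 1.35 to 2.51 CPM in WT, and the dark part is 32.7% to 49.3% of the stack in the mutant and 12.2% to 15.2% in WT.

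Beyond this pair lie the Wnt co-receptor gene Lrp6 and the genes Mansc1, for a membrane protein with a MANSC domain, and Borcs5, for a subunit of the BORC complex that positions lysosomes. Lrp6 measured 103, 118 and 124 CPM in the mutant and 118, 128 and 120 CPM in WT, a log2 fold change of -0.08 (SE 0.077), or -0.0025 without mutant replicate 1. Mansc1 measured 12.8, 12.2 and 13.3 CPM in the mutant and 16.9, 12.5 and 12.0 CPM in WT (-0.11, SE 0.14). In both genes the genotypes overlapped, and for Mansc1 the WT replicate 1 value alone lay above the mutant range, so that without it the log2 fold change was 0.06. Borcs5 measured 3.90, 4.64 and 4.10 CPM in the mutant and 3.87, 4.50 and 3.94 CPM in WT, overlapping almost throughout (0.04, SE 0.17). Its log2 fold change ran from -0.04, without mutant replicate 2, to 0.11, without WT replicate 2, and was 0.09 without mutant replicate 1.

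Dusp16, whose phosphatase acts on JNK and p38 kinases, measured 12.1, 14.3 and 13.4 CPM in the mutant and 14.4, 15.3 and 13.1 CPM in WT (log2 fold change -0.11, SE 0.12). The log2 fold change of Dusp16 was -0.04 without mutant replicate 1, -0.05 without WT replicate 2 and -0.17 without mutant replicate 2 or WT replicate 3. Crebl2, for a basic leucine zipper protein related to CREB, measured 12.1, 13.2 and 13.3 CPM in the mutant and 15.7, 13.1 and 10.9 CPM in WT (-0.04, SE 0.14). The genotypes overlapped in both, and for Crebl2 the WT libraries spread over a wider range than the mutant ones; its log2 fold change was 0.10 without WT replicate 1, -0.17 without WT replicate 3 and -0.0020 without mutant replicate 1.

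Cdkn1b, the Cip/Kip inhibitor gene, measured 45.0, 50.2 and 47.1 CPM in the mutant and 45.8, 37.0 and 38.2 CPM in WT. WT replicate 1 lay inside the mutant range and the other 2 WT libraries below it. The means were 47.4 ± 2.65 and 40.4 ± 4.78 CPM in the mutant and WT (SD, n = 3), a log2 fold change of 0.23 (SE 0.090), or 1.17-fold. It was 0.27 without mutant replicate 1 and ran from 0.17, without WT replicate 2, to 0.33, without WT replicate 1. The lncRNA gene Lockd, which begins 3.58 kb after the end of Cdkn1b and is known from mouse erythroid cells, measured 41.7, 35.3 and 39.5 CPM in the mutant and 36.2, 26.8 and 39.5 CPM in WT (log2 fold change 0.19, SE 0.13; adjusted p = 0.661 in edgeR's quasi-likelihood test). Its genotypes overlapped.

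Apold1, an early response gene known from endothelial cells, was close to the limit of these libraries, with 85, 42 and 19 counts in mutant replicates 1, 2 and 3 and 38, 36 and 21 in WT replicates 1, 2 and 3. Its levels were 0.972, 0.806 and 0.423 CPM in the mutant and 0.620, 0.737 and 0.431 CPM in WT, which overlapped (log2 fold change 0.32, SE 0.40). The log2 fold change was 0.05 without mutant replicate 1, 0.13 without WT replicate 3, 0.49 without WT replicate 2 and 0.58 without mutant replicate 3. The summed endothelial markers were 154 to 163 CPM in the mutant and 134 to 147 CPM in WT. Of these 8 markers, 4 had a log2 fold change above 0 and 4 below, with a median of -0.01. Their part in Apold1 was not tested. Ddx47, for a DEAD-box RNA helicase of ribosomal RNA processing, was the steadiest, at 70.3, 67.5 and 65.0 CPM in the mutant and 65.5, 65.9 and 70.3 CPM in WT (0.01, SE 0.063).

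**Figure D3:**
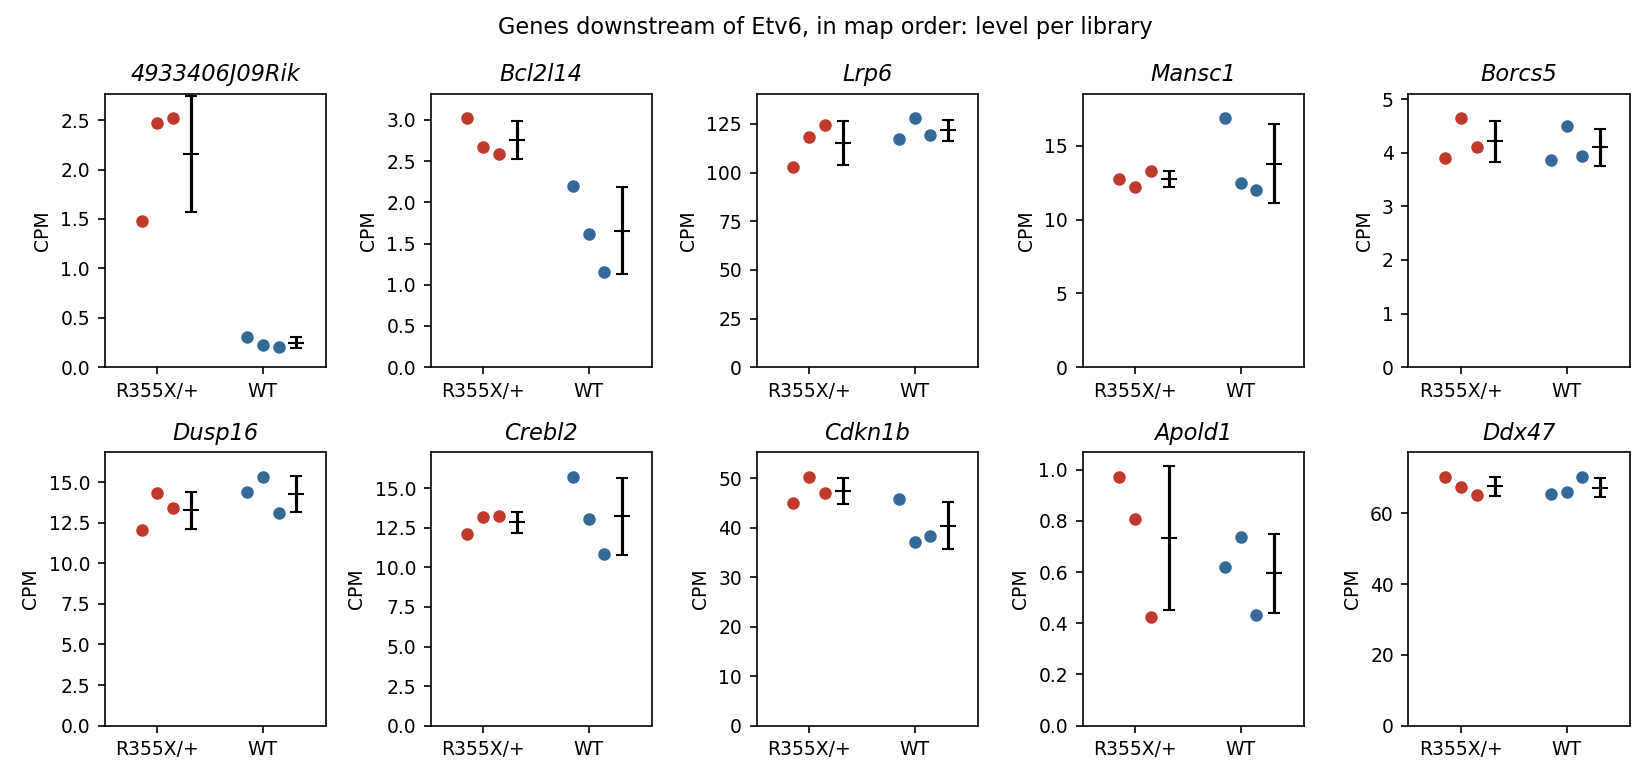
CPM of the 10 genes in map order, 1 panel per gene with its own axis from 0; points are libraries, red for R355X/+ and blue for WT, and the bar beside them is the mean ± SD of 3 libraries. 4933406J09Rik and Bcl2l14 are the 2 panels in which the genotypes do not overlap.

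As a group, the 10 genes had a median log2 fold change of 0.02, against 0.0019 over all tested genes, with 6 above 0 and 4 below. With libraries scaled by total size alone Ddx47, too, lay below 0, at -0.028, but so did the median over all tested genes, at -0.034. Without 4933406J09Rik the median was 0.0088 and the range from -0.11 to 0.73. By unadjusted p under 0.05 in edgeR's quasi-likelihood test, 3 of the 10 were higher (4933406J09Rik, Bcl2l14 and Cdkn1b) and 0 lower, beside 5.83% of all tested genes higher and 4.8% lower, which is again a description for genes chosen with this contrast known. Standard errors were smallest for Ddx47 (0.063), Lrp6 (0.077) and Cdkn1b (0.090), which drew the most counts, and largest for Bcl2l14 (0.25), 4933406J09Rik (0.34) and Apold1 (0.40), which drew the fewest.

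**Figure D4:**
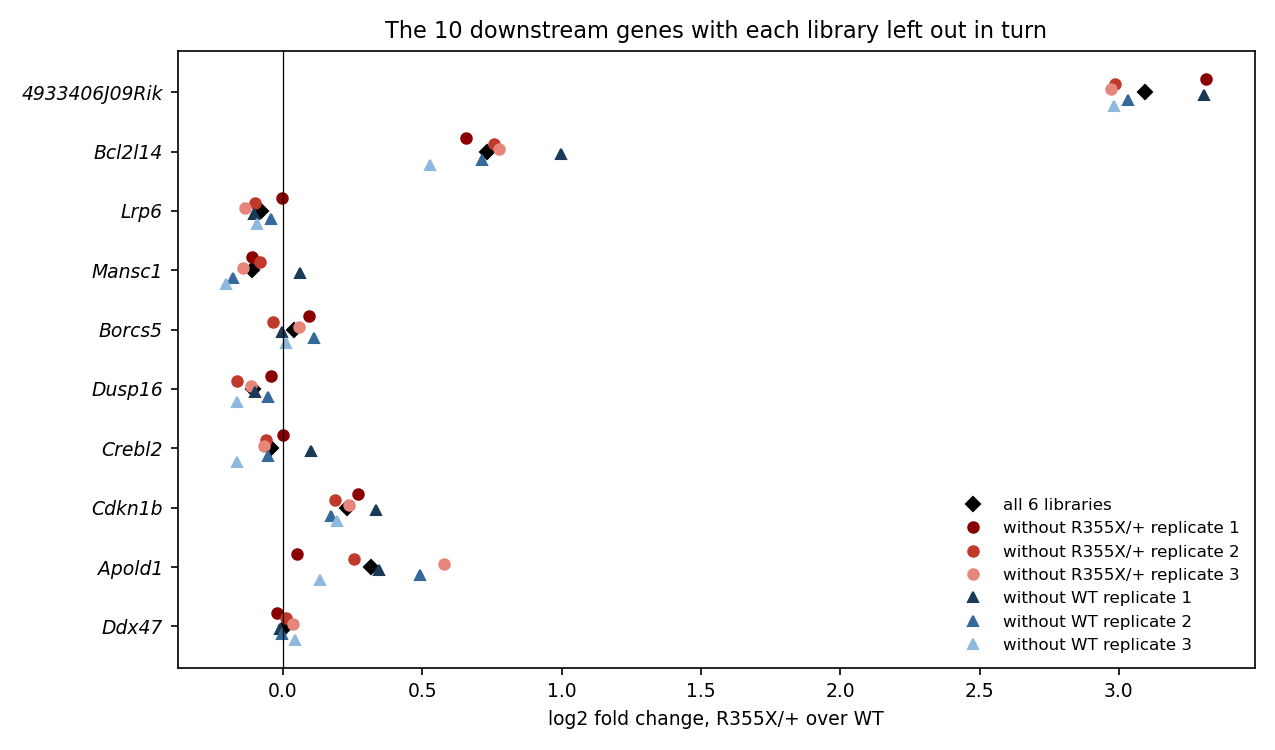
Log2 fold change of R355X/+ over WT (x axis) of the 10 genes (y axis, map order from the top) with all 6 libraries (black) and with each library left out in turn, mutant libraries red and WT libraries blue. 4933406J09Rik stays between 2.97 and 3.31 and Bcl2l14 between 0.53 and 1.00, while Mansc1, Borcs5, Crebl2 and Ddx47 fall on both sides of 0.

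Per kilobase of merged exons, levels of the genes can be set side by side only as far as that length fits the transcripts present. Merged exons join all annotated transcripts of a gene. Ddx47 has 6652 merged bases but 1764 in its 12-exon transcript, while Mansc1 has 2376 in both. The orders and shares below hold for merged exons, and other lengths were not tested. In the mutant the order was Cdkn1b (10.4 ± 0.582 CPM per kb), Ddx47 (10.2 ± 0.395), Lrp6 (8.42 ± 0.820), Mansc1 (5.37 ± 0.236), Crebl2 (2.08 ± 0.104), Dusp16 (1.70 ± 0.147), Borcs5 (1.68 ± 0.153), 4933406J09Rik (1.43 ± 0.392), Bcl2l14 (0.674 ± 0.0565) and Apold1 (0.206 ± 0.0789; SD, n = 3 throughout). Neighbours in that order whose libraries overlapped were Cdkn1b with Ddx47, Dusp16 with Borcs5, and Borcs5 with 4933406J09Rik. In WT the order was Ddx47 (10.1 ± 0.400), Lrp6 (8.90 ± 0.401), Cdkn1b (8.87 ± 1.05), Mansc1 (5.80 ± 1.13), Crebl2 (2.14 ± 0.392), Dusp16 (1.83 ± 0.143), Borcs5 (1.64 ± 0.139), Bcl2l14 (0.405 ± 0.129), Apold1 (0.167 ± 0.0433) and 4933406J09Rik (0.164 ± 0.0369). There the overlapping neighbours were Lrp6 with Cdkn1b, Crebl2 with Dusp16, Dusp16 with Borcs5, and Apold1 with 4933406J09Rik. The lncRNA thus went with Borcs5 in the mutant and with Apold1, at the bottom, in WT. Its level exceeded that of 35.8% of tested genes in the mutant and of 7.09% in WT, while Ddx47 exceeded 79.7% and 79.9%.

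**Figure D5:**
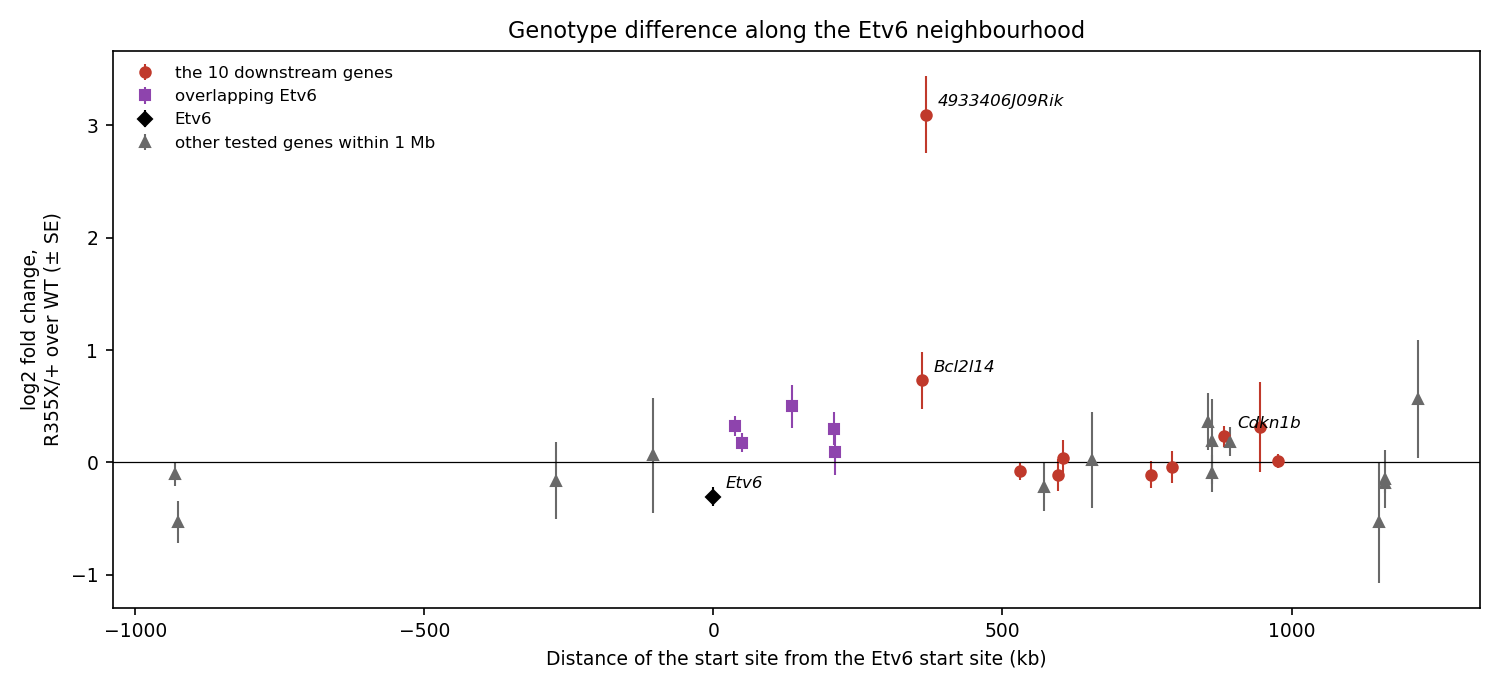
Log2 fold change of R355X/+ over WT (y axis, ± SE) for every tested gene within 1 Mb of Etv6, by the distance of its start site from that of Etv6 (x axis, kb). 4933406J09Rik at 3.10 and Bcl2l14 at 0.73 lie side by side; the 5 genes inside Etv6 lie above 0, Etv6 lies below it, and the other genes lie between -0.53 and 0.56.

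The other genes around Etv6 were taken by position alone and tested over all genes. Within 1 Mb, 20 further genes are annotated on the downstream side, of which 10 were tested, and 25 on the upstream side, of which 4 were tested; the upstream genes below the filter include taste receptor genes. By adjusted p in edgeR's quasi-likelihood test 0 of these 14 passed, beside 0.266% of all tested genes, and DESeq2 and limma-voom called 0 too. By unadjusted p under 0.05 in edgeR's test there were 0 higher and 1 lower, beside 5.83% and 4.8% of all tested genes. For 14 genes such counts are near those shares, so they do not show that the surroundings are unchanged. Their median log2 fold change was -0.04 downstream and -0.13 upstream. The 1 lower gene was Gm45769, an unconfirmed transcript 923 kb upstream, at 1.99, 2.42 and 2.01 CPM in the mutant and 3.08, 3.03 and 3.14 CPM in WT (log2 fold change -0.53, SE 0.19, adjusted p = 0.368). Its coding neighbour Smim10l1 measured 17.9 ± 1.27 CPM in the mutant and 19.2 ± 1.40 CPM in WT, and the pseudogenes Gm6375 and Gm8956, the nearest tested genes to Etv6 on that side, had adjusted p of 0.915 and 0.982 in the same edgeR test.

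Downstream, the smallest p belonged to Fam234b, 928 kb away, at 21.3, 20.8 and 20.7 CPM in the mutant and 22.9, 24.0 and 24.7 CPM in WT (log2 fold change -0.19, SE 0.085, adjusted p = 0.471 in edgeR's quasi-likelihood test). All its mutant libraries were below all WT libraries. Gm44366, inside Gpr19, measured 1.44 ± 0.217 and 1.12 ± 0.0633 CPM in the mutant and WT, also without overlap, and Gsg1 0.346 ± 0.155 and 0.237 ± 0.0848 CPM (SD, n = 3), with adjusted p of 0.657 and 0.757 in edgeR's test. Of the 14 genes on both sides, 1 was not overlapping and higher in the mutant and 2 not overlapping and lower, beside 8.45% and 7.84% of all tested genes.

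The 5 genes annotated inside the Etv6 gene had log2 fold changes above 0 while that of Etv6 was below 0. These 5 genes lie within the span of Etv6, and the counts carry no strand. Reads of unspliced Etv6 RNA therefore cannot be told apart from theirs, and that part was not tested. Gm43982, an unconfirmed transcript on the strand of Etv6 that shares no exonic base with it, measured 61.4, 61.1 and 72.0 CPM in the mutant and 52.5, 55.9 and 46.8 CPM in WT (log2 fold change 0.33, SE 0.088, adjusted p = 0.218 in edgeR's quasi-likelihood test). Gm43984, of the same kind, averaged 116 ± 7.77 CPM in the mutant and 103 ± 10.2 CPM in WT (0.18, SE 0.082, adjusted p = 0.483 in edgeR's test). The antisense gene Gm17088 averaged 4.65 ± 0.775 CPM in the mutant and 3.29 ± 0.450 CPM in WT (0.50, SE 0.19, adjusted p = 0.406 in edgeR's test). The antisense gene Gm17089, which shares 135 exonic bases with Etv6, averaged 8.26 ± 0.455 and 6.70 ± 0.905 CPM, and 1700051K13Rik 2.87 ± 0.370 and 2.69 ± 0.377 CPM in the mutant and WT (SD, n = 3). In edgeR's quasi-likelihood test 0 of the 5 passed by adjusted p (0.266% of all tested genes). In the same test 2 were higher at an unadjusted p below 0.05 (5.83% of all tested genes), and neither DESeq2 nor limma-voom called any. For Gm43982, Gm17088 and Gm17089 the mutant libraries lay above all WT libraries, as for 8.45% of all tested genes, although for Gm17089 the closest mutant and WT libraries both measured 7.75 CPM after rounding. Etv6 counts were fractional in all 6 libraries and whole when added to those of Gm17089, and the log2 fold change of Etv6 was -0.29 with both summed.

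The partners of these genes in their pathways were described from 7 lists. Of 107 tested genes in them, 0 passed by adjusted p in edgeR's quasi-likelihood test, beside 0.266% of all tested genes. With limma-voom 0 were called, beside 41 of all 20646 tested genes, and with DESeq2 3, beside 325 of 20646. These 3 were the cyclin genes Ccnd1 (higher) and Ccnd2 (lower) and the MAP kinase phosphatase gene Dusp5 (higher). By unadjusted p under 0.05 in edgeR's test, 11 of the 107 were higher and 11 lower, beside 5.83% and 4.8% of all tested genes. Among G1 regulators around Cdkn1b, 4 of 14 were higher and 2 lower at that unadjusted level (5.83% and 4.8% of all tested genes), with a median of 0.08. Ccnd1 measured 58.0 ± 2.15 CPM in the mutant and 41.8 ± 5.70 CPM in WT (log2 fold change 0.47, SE 0.094, adjusted p = 0.0926 in edgeR's test) and Ccnd2 187 ± 15.0 and 230 ± 12.2 CPM (-0.30, SE 0.072, adjusted p = 0.170 in edgeR's test). Both code for D-type cyclins, the partners of the G1 kinases.

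Wnt receptor genes around Lrp6 had 3 of 23 higher and 1 lower by unadjusted p under 0.05 (median -0.10); the share of all tested genes, here and for the lists that follow, was 5.83% higher and 4.8% lower. The Wnt target Axin2 measured 1.20 ± 0.149 CPM in the mutant and 0.589 ± 0.169 CPM in WT (adjusted p = 0.295 in edgeR's test). The transcription factor gene Lef1 measured 12.0 ± 5.07 and 7.00 ± 1.67 CPM (adjusted p = 0.372 in edgeR's test). Its genotypes overlapped. Lef1 was at 17.1, 12.1 and 6.95 CPM in mutant replicates 1, 2 and 3. In WT replicates 1, 2 and 3 it was at 6.07, 6.00 and 8.93 CPM. MAP kinase phosphatases and their kinases, the group of Dusp16, had 2 of 13 higher and 0 lower (median 0.13), with Dusp5 at 9.24 ± 1.14 and 5.85 ± 0.734 CPM and Dusp7 at 22.2 ± 1.04 and 17.5 ± 1.79 CPM in the mutant and WT (adjusted p = 0.163 and 0.278 in edgeR's test). BCL2 family genes had 2 of 19 higher and 1 lower (median 0.08). Bok, which encodes a BAX-like protein, measured 2.81 ± 0.843 and 1.69 ± 0.532 CPM (adjusted p = 0.411 in edgeR's test). Its genotypes overlapped, at 3.73, 2.63 and 2.07 CPM in the mutant and 1.24, 1.56 and 2.28 CPM in WT. Bcl2l13 measured 47.3 ± 2.53 and 53.5 ± 4.07 CPM (adjusted p = 0.444 in edgeR's test).

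Nucleolar DEAD-box and small-subunit processing genes, the group of Ddx47, lay mostly below 0. Of 19, 18 had a log2 fold change below 0, 7 were lower and 0 higher by unadjusted p under 0.05, beside 4.8% and 5.83% of all tested genes, and the median was -0.13, against 0.0019 over all tested genes. Nol6 measured 36.0 ± 0.938 CPM in the mutant and 42.8 ± 0.621 CPM in WT and the helicase gene Ddx51 27.4 ± 0.228 and 32.9 ± 0.754 CPM (adjusted p = 0.208 and 0.240 in edgeR's test). Ddx47 itself, at 0.01, compares with that median of -0.13; the difference was not tested. BORC and Arl8 genes, the partners of Borcs5, had 0 of 9 past the unadjusted level (median -0.05, with Borcs6 at 2.80 ± 0.249 and 3.64 ± 0.420 CPM and Bloc1s1 at 21.5 ± 1.81 and 18.8 ± 0.892 CPM in the mutant and WT), and the CREB family 0 of 10 (median -0.02, with Crtc3 at 37.9 ± 2.91 and 41.1 ± 0.591 CPM and Crem at 4.71 ± 0.713 and 4.15 ± 0.200 CPM; SD, n = 3).

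The genes whose profile over the 6 libraries was most like that of 4933406J09Rik were sought among 15990 tested genes averaging at least 1 CPM, by the root mean square distance between log2(CPM + 0.1) values centred on each gene's mean. The nearest were Fcer1a, the alpha chain of the IgE receptor (distance 0.46), Pkd1l3 (0.47) and the immunoglobulin heavy chain segment Ighv1-50 (0.52), on chromosomes 1, 8 and 12; Fcer1a is also one of the mast, basophil and eosinophil markers. Fcer1a measured 2.49 ± 0.380 CPM in the mutant and 0.499 ± 0.0776 CPM in WT, Pkd1l3 7.55 ± 0.893 and 1.46 ± 0.386 CPM, and Ighv1-50 2.45 ± 1.08 and 0.590 ± 0.211 CPM (SD, n = 3). The measure rests on 6 libraries in 2 groups. Since 4933406J09Rik was chosen for its rise in the mutant, the genes nearest to it by this measure are bound to be higher there too. Their levels are a description, and shared regulation or a shared cell type was not tested.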

How the data were processed

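RNA was measured by sequencing in 6 LSK libraries, 3 Etv6 R355X/+ and 3 wild type, grouped by their titles. Per the labels' protocols, cDNA came from total RNA by isothermal amplification (SPIA), which marks no strand. The authors deposited expected counts, without scaling to depth. The submitters' processing notes list RSEM 1.31, STAR 2.7, Trim Galore 0.60 and mm10; the gene annotation's release is not given in the sources used here. Positions and exon lengths were taken from GENCODE M21 (mm10), which matched 55394 of 55573 genes by identifier; 92 spike-in rows at 0 were left out.

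Expected counts were rounded, filtered with filterByExpr, scaled by TMM and compared between genotypes with edgeR 4.0.16 (quasi-likelihood test, two-sided, R 4.3.3), with Benjamini-Hochberg adjustment over all tested genes and a threshold of 0.05. Standard errors were derived from each log2 fold change and F value. The fit was run on simulated counts with known fold changes. Only the largest of these was required to be recovered, in the median, and smaller ones were not checked. The simulated spread followed the trend over genes and not each gene's own, and the rate of false calls was not tested. DESeq2 1.42.0, limma-voom (limma 3.58.1), other scalings and filters, unrounded counts, the replicate block and leaving out each library were alternatives. The 10 genes and the lists were chosen with earlier results of these data known. Named besides them were Etv6 and the genes overlapping it, up to 4 other genes per side within 1 Mb and up to 2 per partner list by unadjusted p, and the 3 genes closest in profile to 4933406J09Rik; genes named outside this rule were chosen after their values were seen. No library repeated another (chi-square per gene 11.3 to 48.6 between replicates). Since no label ties replicates to separate animals, p-values reflect only how far these libraries spread, which may be technical.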

Additional observations from a re-analysis of the deposited data

How the results depend on the processing

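The log2 fold change of 4933406J09Rik stayed above 0 and its adjusted p under 0.05 in 15 of 15 alternatives. The gene was chosen for its rise in these same libraries, so this describes the processing and is no independent support. Summed with Bcl2l14, a setting outside these 15 and chosen after seeing the data, the pair had an adjusted p of 0.0453 in edgeR's quasi-likelihood test. None of the other 9 genes passed in any alternative that gave an adjusted p; Apold1 had none in DESeq2 or at 1 CPM in 3 libraries. The number of genes past the threshold, 55 by edgeR's quasi-likelihood test, was 325 by DESeq2, 527 without a filter on low counts and 32 with the replicate block, and ran from 16 (without WT replicate 2) to 67 (without mutant replicate 3) with 1 library left out, with 23 without WT replicate 1, 26 without mutant replicate 1 and 18 without mutant replicate 2; the cause was not tested. The replicate numbers did not pair the libraries: same-numbered deviations correlated at -0.020, -0.025 and -0.085, and no library correlated best with its own number. Besides Etv6 and the 10 genes, of those overlapping or within 1 Mb of Etv6, 1 of 29 passed without a filter (Gm43982). With the filter 0 of 19 passed in edgeR's test, beside 0.266% of all tested genes. The downstream median ran from -0.11 to 0.11 with 1 library left out, above 0 only without mutant replicate 3, and was -0.10 without mutant replicate 1. The upstream median was -0.34 without a filter (6 genes) and -0.32 with at least 1 CPM in 3 libraries (2 genes), and ran from -0.24 to -0.03 with 1 library left out. Of the 107 tested partners DESeq2 called 3, beside 325 of all 20646 tested genes, against 0 in edgeR's test with the filter. The unfiltered fit called 5 of 112 (Ccnd1, Ccnd2, Dusp5, Lef1 and Cdk6), beside 527 of all 33271. Etv6, at an adjusted p of 0.245, passed in DESeq2 (0.0491) and without a filter (0.0111). The longer motif CCGGAAG was in 8.86% of promoters. Counts of 10 to 18.87 in WT libraries limit the fold of 4933406J09Rik.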
